A study of Mus musculus with 10 samples.

Results

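Axon guidance ligands and receptors were followed in RNA-seq of mouse kidney glomeruli, the capillary tufts that filter blood. The group held 67 genes of the 22053 in the deposited table, chosen by name alone: class 3 to 7 semaphorins, plexins, neuropilin 2, ephrins, Eph receptors, Slits, Robos, numbered netrins and the receptors Unc5a to Unc5d. The wild-type group had 5 libraries of glomeruli carrying wild-type Col4a3, which encodes a chain of the collagen IV network in the glomerular basement membrane, and the G799R group had 5 libraries of glomeruli with the Col4a3 p.G799R missense change. For the mice, zygosity, strain, age and sex, and for the glomeruli the isolation method, were not given in the sources used here. Each group has 5 numbered libraries in the labels, which do not say whether each came from its own mouse. The p-values therefore cover library-to-library spread only, and this spread may be technical.

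Guidance molecules steer growing axons and vessels by attraction or repulsion at the cell surface. Semaphorins signal through plexins, alone or with a neuropilin as co-receptor; membrane-bound ephrins signal through Eph receptor tyrosine kinases and back into the ephrin-bearing cell; secreted Slits act through Robos; and netrins act through Dcc and the Unc5 family. In the kidney the same families act without axons: Slit2 and Robo2 limit budding of the ureter during development, Robo2 and ephrin-B1 are tied to the slit diaphragm of podocytes, the epithelial cells that wrap the glomerular capillaries, and Plxnd1, Robo4, Unc5b, Ephb4 and Efnb2 are known for their roles in endothelium.

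Values are FPKM, fragments scaled to transcript length and to library size, so levels can be compared between genes per length. Every difference is G799R minus wild type on the log2(FPKM + 1) scale, which understates changes of low genes, and folds are ratios of mean FPKM. FPKM sums were 320720 to 340875 per library. Absolute depth is unknown; relative depth, estimated from the steps of low values of 35 to 54 genes a library, ranged from 0.859 to 1.20 with wild-type library 1 as the unit. A gene was tested when its mean over the 10 libraries was at least 0.5 FPKM, and it was called higher or lower at a Benjamini-Hochberg adjusted p under 0.05 over all 13117 genes tested by limma.

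Of the 67 guidance genes, 53 passed the filter and 14 did not. As deposited, 32 of the 53 were called higher in G799R (60.4%) and 9 lower (17.0%), beside 40.5% and 19.3% of all genes tested. The median log2 difference was 0.46 over the 53 genes and 0.17 over all genes tested. Every G799R library lay above every wild-type library for 25 of the 53 and below for 6, while 26.1% and 15.7% of all genes tested had groups apart in these directions. Receptors were called higher more often in this count (18 of 26 tested, 3 lower) than ligands (14 of 27, 6 lower). This difference was not tested, and the contrast in rises was not seen under the marker scaling described below.

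Markers of the cells in the libraries moved with genotype. Podocyte markers, at a summed level of 3713 to 4394 FPKM in wild type and 6061 to 8010 in G799R with none of the 17 listed at 0, matched the labelled tissue. The mean log2 level of 55 markers of podocytes, endothelium and mesangium, called the glomerular score here, was 6.11 ± 0.23 for wild-type and 6.72 ± 0.06 for G799R libraries (SD, n = 5 each; difference 0.62, exact two-sided permutation p = 0.00794, the smallest that 5 against 5 libraries allow). The score of 47 markers of proximal and distal tubule was 6.32 ± 0.26 and 3.95 ± 0.42 (difference −2.37, exact permutation p = 0.00794), and 46 of the 47 genes were called lower: 24 of 24 proximal and 22 of 23 distal. Summed FPKM of the proximal list ran from 8669 to 16313 in wild type and from 1181 to 2977 in G799R; no marker of either list was at 0. In bulk tissue, fewer cells of a type and less RNA per cell cannot be told apart.

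**Figure D1:**
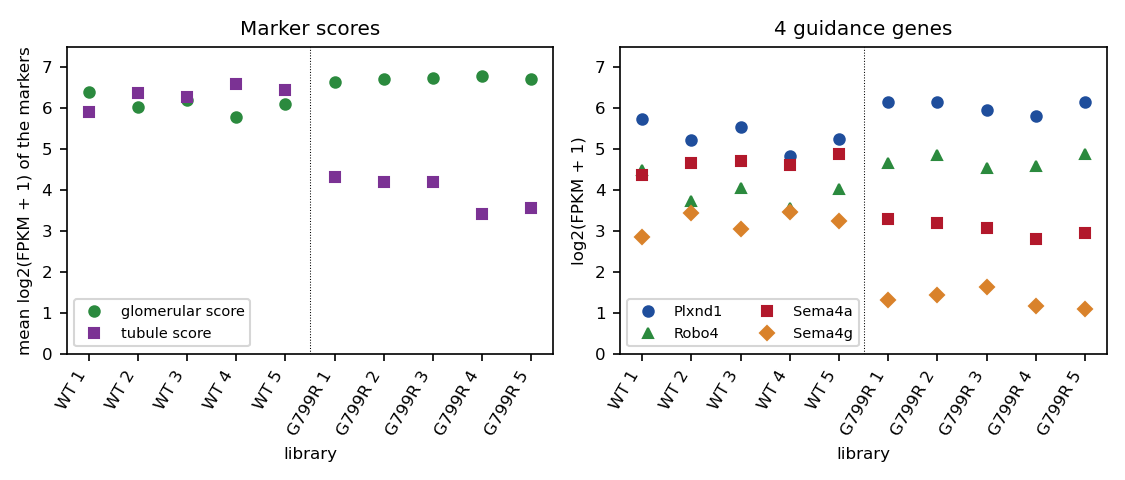
Left, the glomerular and tubule marker scores (mean log2(FPKM + 1) of 55 and 47 genes) in each of the 5 wild-type (WT) and 5 G799R libraries. Right, log2(FPKM + 1) of 4 guidance genes in the same libraries: Plxnd1 and Robo4 were at their lowest in wild-type library 4, where the glomerular score was lowest at 5.78, while Sema4a and Sema4g were at their lowest wild-type level in library 1, where the tubule score was lowest at 5.90. These 4 genes are chosen examples. Of the 32 genes called higher, 24 had their lowest wild-type value in library 4. The exceptions were Efna5, Epha6, Epha7, Plxna3, Plxnc1, Robo2, Sema4b and Unc5c. Of the 9 called lower, 6 had it in library 1, all but Epha1, Ephb3 and Ntn1.

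Because the direction of many genes depends on what is held constant, each result is also given under glomerular marker scaling, in which the mean log2 FPKM of those 55 glomerular markers is set equal in every library. Guidance genes were not taken out of the markers, so any that is also a marker is in part held constant by this scaling. Under it the median over all genes tested stood at −0.36, and 4.88% of all genes were called higher and 56.4% lower. Of the 53 guidance genes 7 were called higher (13.2%) and 14 lower (26.4%), with a median of −0.10; in either direction 61.3% of all genes were called. The 7 that stayed higher were Sema3e, Sema3f, Sema4c, Plxnc1, Efnb1, Epha2 and Epha6. By role, 4 of 27 ligands and 3 of 26 receptors were called higher, and 9 ligands and 5 receptors lower. All 9 genes lower as deposited were also lower under this scaling: Sema3c, Sema4a, Sema4d, Sema4g, Slit2, Epha1, Ephb2, Ephb3 and Ntn1. The other 25 of the 32 higher genes were not called, and Sema3b, Plxnb2, Efna4, Epha4 and Ntn4, not called as deposited, were called lower. Efna4, with a mean of 0.583 FPKM over all libraries, was at the threshold (limma adjusted p = 0.05 after rounding). Under median-of-ratios scaling, which moved the median of all genes to 0.02, 25 guidance genes were called higher and 9 lower (23.3% and 25.5% of all genes tested, 48.8% in either direction), and the calls of Efna1, Efnb2, Ephb4, Plxna2, Plxna3, Sema6a and Sema6b were lost. With the tubule score as a covariate limma called 0 guidance genes and 0 of all genes, 749 of which had an unadjusted p under 0.05; the scores of the groups do not overlap, so tubule content and genotype cannot be told apart.

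**Figure D2:**
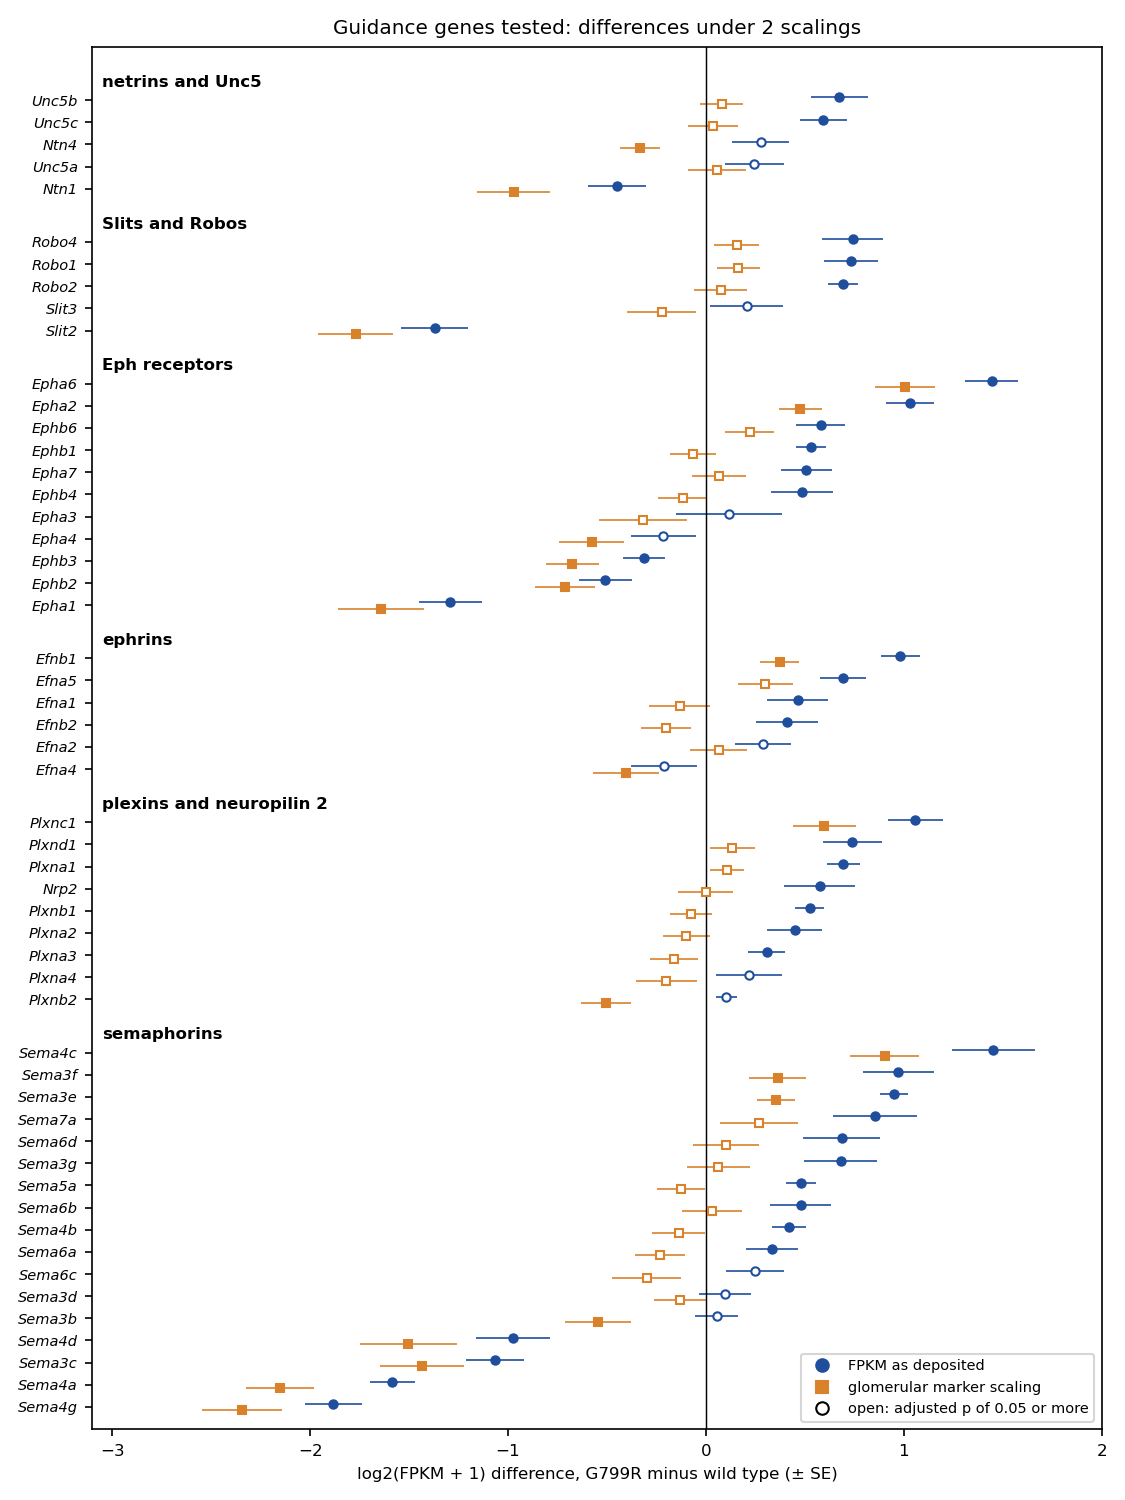
Log2(FPKM + 1) difference (G799R minus wild type, ± SE, n = 5 each) of the 53 guidance genes tested, grouped by family; blue circles are FPKM as deposited, orange squares glomerular marker scaling, and open symbols have a limma adjusted p of 0.05 or more. Scaling moves most genes left by a like amount, Sema4c and Epha6 stay furthest to the right, and Sema4g and Sema4a lie furthest to the left under both.

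The wild-type libraries alone showed a related order. Of the 32 genes called higher, 24 had their lowest wild-type value in library 4, the wild-type library with the lowest glomerular score (5.78) and the highest tubule score (6.60), and 14 had their highest in library 1, which had the highest glomerular score (6.40) and the lowest tubule score (5.90). Of the 9 genes called lower, 6 had their lowest wild-type value in library 1 and 5 their highest in library 4. Among the 12 tested guidance genes not called, 7 were also lowest in library 4 and 5 highest in library 1. Wild-type values enter the calls, so the order is not independent of them. Over all genes tested, 36.7% were lowest in library 4 and 21.2% lowest in library 1, and 36.5% were highest in library 1 and 17.9% highest in library 4.

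The sequences before the starts of the 3 largest rises (Sema4c, Epha6, Plxnc1) and the 3 largest falls (Sema4g, Sema4a, Slit2) on the log2(FPKM + 1) scale are shown because these 6 genes lie at both ends of that scale and kept their direction under the 3 other scalings run; by fold of means, the low genes Epha1 (4.90-fold lower) and Sema3c (3.63-fold lower) fell more than Sema4a (3.26-fold). Each is the 250 bases before the transcript start in RefSeq (GRCm38.p6), 5′ to 3′ on the gene's own strand, from the most upstream start listed, and capitals mark matches to the motifs named after them. RefSeq lists 2 starts for Sema4c and 4 for Sema4a. The windows are chr1:36558382-36558631 (minus strand) for Sema4c, chr16:60605532-60605781 (minus) for Epha6, chr10:94944846-94945095 (minus) for Plxnc1, chr19:44989094-44989343 (plus) for Sema4g, chr3:88461183-88461432 (minus) for Sema4a and chr5:47982905-47983154 (plus) for Slit2.
Sema4c: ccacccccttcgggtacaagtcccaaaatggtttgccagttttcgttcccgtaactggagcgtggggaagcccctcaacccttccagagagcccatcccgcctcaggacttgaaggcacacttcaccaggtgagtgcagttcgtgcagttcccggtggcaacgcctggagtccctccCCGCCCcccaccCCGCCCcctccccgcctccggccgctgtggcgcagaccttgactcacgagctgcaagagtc
Epha6: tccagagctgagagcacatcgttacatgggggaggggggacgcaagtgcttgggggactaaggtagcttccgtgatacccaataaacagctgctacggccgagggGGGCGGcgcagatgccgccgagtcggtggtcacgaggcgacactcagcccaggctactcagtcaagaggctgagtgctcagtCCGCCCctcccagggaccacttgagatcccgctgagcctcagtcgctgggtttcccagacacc
Plxnc1: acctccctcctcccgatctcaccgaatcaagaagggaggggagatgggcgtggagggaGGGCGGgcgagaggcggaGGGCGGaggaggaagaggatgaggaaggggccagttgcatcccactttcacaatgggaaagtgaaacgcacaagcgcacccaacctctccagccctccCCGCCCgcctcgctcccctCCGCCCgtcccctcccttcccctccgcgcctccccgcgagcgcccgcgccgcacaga
Sema4g: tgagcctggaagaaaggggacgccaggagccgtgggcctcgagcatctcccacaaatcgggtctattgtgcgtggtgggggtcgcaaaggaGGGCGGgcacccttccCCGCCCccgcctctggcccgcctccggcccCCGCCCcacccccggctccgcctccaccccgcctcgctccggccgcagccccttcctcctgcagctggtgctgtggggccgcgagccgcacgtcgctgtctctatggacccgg
Sema4a: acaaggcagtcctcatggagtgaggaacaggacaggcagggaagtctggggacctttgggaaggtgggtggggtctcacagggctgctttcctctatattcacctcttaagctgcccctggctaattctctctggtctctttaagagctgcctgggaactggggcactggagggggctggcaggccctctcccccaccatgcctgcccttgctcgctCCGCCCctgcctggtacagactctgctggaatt
Slit2: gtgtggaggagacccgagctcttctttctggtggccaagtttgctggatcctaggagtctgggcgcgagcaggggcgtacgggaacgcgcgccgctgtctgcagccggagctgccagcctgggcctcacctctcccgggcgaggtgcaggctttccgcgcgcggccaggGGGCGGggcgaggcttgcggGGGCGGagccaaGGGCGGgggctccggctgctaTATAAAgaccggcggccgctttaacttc
The motifs were searched on both strands, each separately: the GC box GGGCGG, the TATA box TATAAA, the ETS site CCGGAAG, the HNF1 site GTTAAT and the STAT site TTCNNNGAA. In the shown windows the matches were GC boxes, at 1 to 4 per gene, and 1 TATA box before Slit2. Promoter windows were found for 58 of the 67 guidance genes, and a GC box lay in 42 of them (72.4%), against 33.0% of the windows of all 27025 genes. It lay in 23 of the 29 windows of genes called higher and 6 of the 8 of genes called lower, so it was common on both sides. The median GC content was 64.8% for guidance genes and 52.0% for all, and each of the other 4 motifs was found in 2 of the 58 windows (3.45%), against 13.0%, 7.07%, 6.54% and 7.14% of all windows in the order named. Matches describe letters in these windows only.

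Semaphorins, the ligands of plexins, held the guidance gene with the highest mean level, Sema3g, and had members called in both directions. Of 17 tested, 10 were called higher and 4 lower as deposited, and 3 higher and 5 lower under glomerular marker scaling, where the family median turned from 0.42 to −0.13. The shares of all genes tested were 40.5% higher and 19.3% lower as deposited, and 4.88% and 56.4% after scaling. Summed semaphorin FPKM went from 534 ± 68.8 to 815 ± 129 (SD, n = 5 each). Sema3g, a secreted class 3 member known in podocytes, supplied 54.5% ± 3.43 of that sum for wild-type and 57.7% ± 7.03 for G799R libraries (SD, n = 5 each), overlapping shares. It was at 350, 328, 293, 210 and 282 FPKM in wild-type libraries 1 to 5 and at 444, 438, 671, 501 and 324 in G799R libraries 1 to 5. The groups overlapped only through G799R library 5, and the log2 difference of 0.68 ± 0.19 (SE, adjusted p = 0.00846) shrank to 0.06 (adjusted p = 0.746) under glomerular marker scaling. The scaled median of the 17 podocyte markers was likewise 0.06. If Sema3g is 1 of these markers, its shrinkage is in part built into the scaling.

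Sema3e, the class 3 semaphorin that binds Plxnd1 without a neuropilin, rose with little spread. It was at 18.03, 18.2, 20.3, 15.5 and 18.7 FPKM in wild type and at 34.5, 35.7, 36.9, 37.2 and 35.2 in G799R. The groups were far apart, the fold was 1.98, and the log2 difference was 0.95 ± 0.07 (SE, adjusted p = 2.28e-06) as deposited and 0.36 (adjusted p = 0.00699) under glomerular marker scaling. The gene lies on chromosome 5 at 14025276 to 14256689 in GENCODE M21 (GRCm38). Sema3f, a ligand of neuropilin 2, likewise rose 1.96-fold, from 34.5 to 67.7 FPKM across wild-type libraries to 82.0 to 125 across G799R libraries, with 0.36 (adjusted p = 0.0439) left under glomerular marker scaling. Sema3b, its neighbour 72270 bases away on chromosome 9, had 26.8 ± 2.64 and 28.0 ± 4.27 FPKM, a difference that did not pass the test (log2 difference 0.05, adjusted p = 0.690), but was lower under glomerular marker scaling (−0.54, adjusted p = 0.0130).

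Class 4 semaphorins, membrane proteins with roles in immune and epithelial cells, split. Sema4c, a ligand of plexin-B2, rose 3.09-fold: wild-type libraries were at 5.84, 5.69, 7.14, 3.29 and 4.57 FPKM and G799R libraries at 9.59, 16.2, 21.9, 16.6 and 17.7. The lowest G799R library, library 1, was still above all wild-type libraries. Its log2 difference was 1.45 ± 0.21 (SE, adjusted p = 0.000161), and 0.90 (adjusted p = 0.000876) under glomerular marker scaling. Sema4a, which also acts in immune cells, fell 3.26-fold from 19.6, 24.5, 25.3, 23.6 and 28.4 FPKM to 8.80, 8.23, 7.42, 6.01 and 6.74 (−1.58 ± 0.11 SE, adjusted p = 2.15e-06; −2.15 under glomerular marker scaling). All 5 G799R libraries were at less than the lowest wild-type level. Sema4g fell most of all guidance genes tested, 5.45-fold, from 6.26, 9.80, 7.29, 10.01 and 8.56 FPKM to 1.49, 1.72, 2.12, 1.23 and 1.14 (−1.88 ± 0.14 SE, adjusted p = 2.64e-06), again with the groups apart. Sema4d, the ligand of plexin-B1, fell 2.19-fold from 9.38 ± 2.39 to 4.29 ± 1.28 FPKM (adjusted p = 0.00104), and Sema4b rose 1.39-fold to 10.4 FPKM as deposited (adjusted p = 0.00167) but stood at −0.14 (adjusted p = 0.384) under glomerular marker scaling. G799R libraries also had the lower tubule scores (3.42 to 4.33, against 5.90 to 6.60), and tubule content and genotype cannot be told apart here.

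Sema3c, a class 3 ligand that acts through neuropilins and Plxnd1 in heart outflow development, fell, while Sema3e on the same chromosome rose. It was at 1.66, 2.88, 2.60, 4.04 and 2.58 FPKM in wild type and 0.820, 0.744, 0.705, 0.622 and 0.898 in G799R (3.63-fold lower, log2 difference −1.07 ± 0.15 SE, adjusted p = 0.000128). No call was made for Sema3d, also on chromosome 5, at 0.569 ± 0.132 and 0.692 ± 0.290 FPKM (adjusted p = 0.540). Of classes 5 to 7, Sema5a, Sema6a, Sema6b, Sema6d and Sema7a were higher as deposited, by 1.29-fold to 1.96-fold, and none of the 6 tested was called under glomerular marker scaling. Sema7a, a GPI-anchored ligand of Plxnc1, was at 11.9 to 17.8 FPKM in wild type and at 25.5, 20.1, 22.8, 25.7 and 51.3 in G799R, and library 5 lay far above the other 4. The call of Sema6a (log2 difference 0.33, adjusted p = 0.0476) depended on 8 of the 10 libraries, all but wild-type 1 and G799R 4: leaving out any of them lost it, with adjusted p up to 0.111.

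**Figure D3:**
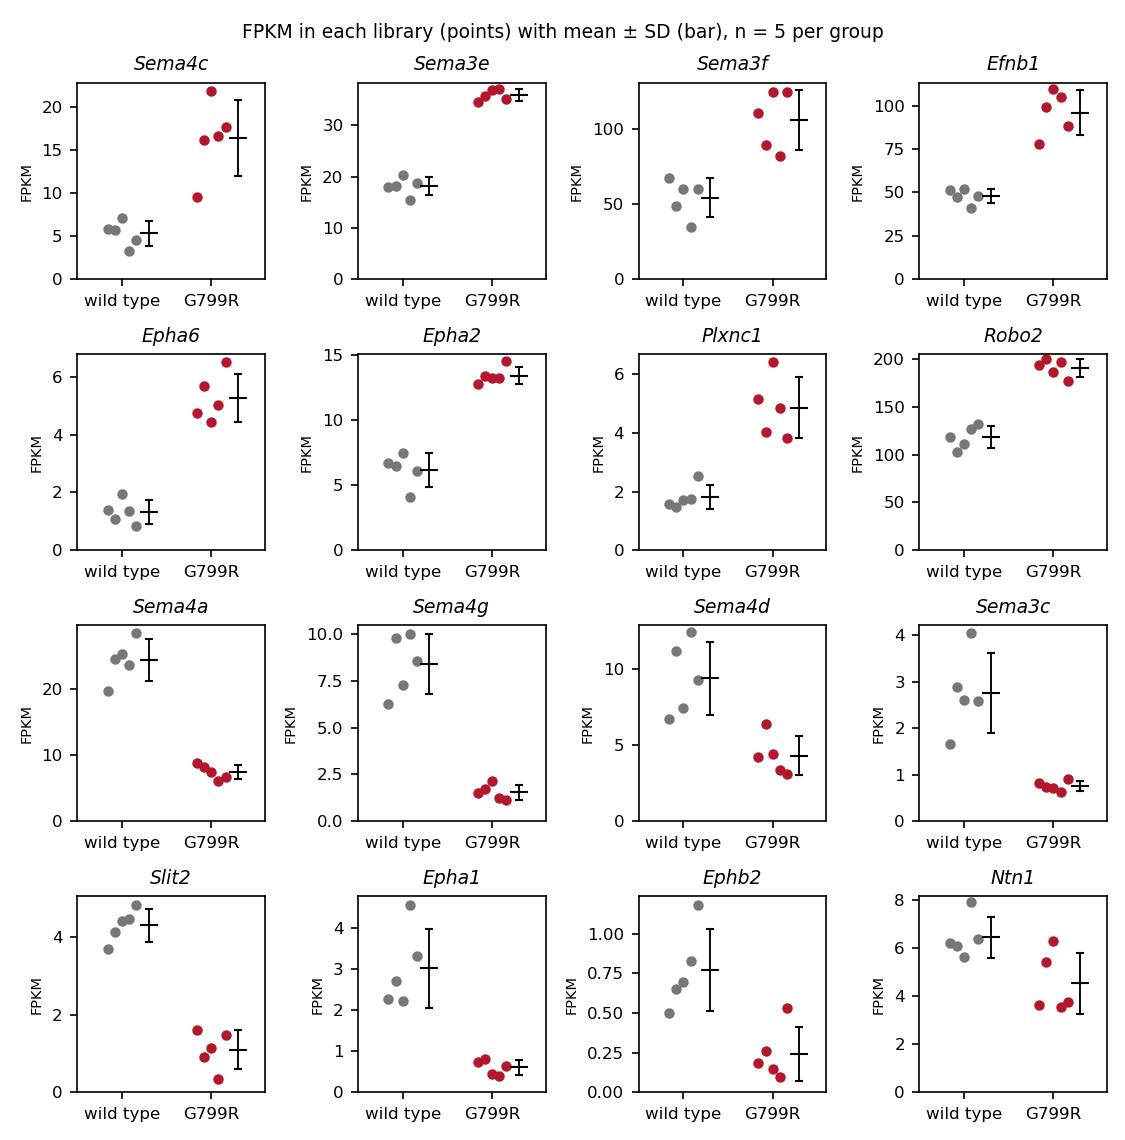
FPKM of 16 guidance genes in each of 5 wild-type (grey) and 5 G799R (red) libraries, with mean ± SD in black; each vertical axis starts at 0. The 8 genes of the upper rows were higher in G799R with no overlap between groups, while among the 8 of the lower rows, all called lower, Ephb2 and Ntn1 overlapped between groups.

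Plexins and neuropilin 2, the receptors of semaphorins, were called higher in 7 of 9 tested genes and lower in none as deposited. Over all genes tested the shares were 40.5% and 19.3%. Under glomerular marker scaling 1 was higher and 1 lower (4.88% and 56.4% of all genes tested), and the family median turned from 0.52 to −0.08. Plxnc1, the receptor of Sema7a and known in myeloid cells, rose most, 2.70-fold. It was at 1.57, 1.47, 1.71, 1.74 and 2.52 FPKM in wild type and at 5.15, 4.04, 6.43, 4.86 and 3.82 in G799R. The groups did not overlap, and the log2 difference was 1.06 ± 0.14 (SE, adjusted p = 7.77e-05) as deposited and 0.60 (adjusted p = 0.00597) under glomerular marker scaling. In the same libraries 11 of 18 macrophage markers were called higher and 0 lower as deposited (40.5% of all genes tested were higher), and under glomerular marker scaling 5 rose and 0 fell (4.88% of all genes were higher). Their summed level was 74.1 to 172 FPKM in wild type and 183 to 323 in G799R and none was at 0; their part in the rise of Plxnc1 was not tested.

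Plxnd1, the endothelial receptor of Sema3e, was at 52.1, 36.2, 45.4, 27.5 and 37.0 FPKM in wild type and at 70.6, 70.7, 60.8, 55.5 and 70.9 in G799R (1.66-fold, log2 difference 0.74 ± 0.15 SE, adjusted p = 0.00142). The wild-type spread was wide, yet the groups were apart. Plxna1 was at 17.3, 14.7, 15.2, 12.7 and 14.98 FPKM and at 22.9, 22.9, 27.3, 26.9 and 24.1 (1.66-fold, adjusted p = 5.05e-05). Under glomerular marker scaling neither receptor was called, at 0.13 and 0.11. Plxnb1, the receptor of Sema4d, was at 23.9, 24.5, 23.9, 21.2 and 23.6 FPKM and at 32.8, 35.9, 34.9, 37.5 and 29.7, higher as deposited (log2 difference 0.52, adjusted p = 0.000113) and at −0.08 (adjusted p = 0.550) under glomerular marker scaling. Plxnb2, the receptor of Sema4c, was at 51.1 to 54.4 FPKM in wild type and at 53.4 to 60.2 in G799R, not called as deposited (log2 difference 0.10 ± 0.05 SE, adjusted p = 0.104), and it was lower under glomerular marker scaling (−0.50, adjusted p = 0.00409). Its share of the summed plexin and neuropilin 2 FPKM went from 34.3% ± 4.19 to 25.95% ± 0.84 (SD, n = 5 each) with no overlap. Such a share does not depend on library scaling, but it can move with cell content where the genes come from different cells. Nrp2 was higher as deposited, at 18.3 ± 2.85 against 12.2 ± 3.42 FPKM (adjusted p = 0.0158), with overlapping groups, and 0.00 (adjusted p = 0.995) under glomerular marker scaling.

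Ephrins were called higher in 4 of 6 tested genes and lower in none as deposited (40.5% and 19.3% of all genes tested). Under glomerular marker scaling 1 was higher and 1 lower (4.88% and 56.4% of all genes tested), and the median turned from 0.44 to −0.03. The lower one was Efna4, at the threshold. Efnb1, the transmembrane ephrin found at the podocyte slit diaphragm, rose 2.01-fold. Its wild-type values were 51.1, 47.4, 51.7, 41.0 and 48.1 FPKM and its G799R values 77.9, 99.3, 110, 105 and 88.2. The groups did not overlap, and the log2 difference was 0.98 ± 0.10 (SE, adjusted p = 1.36e-05) as deposited and 0.37 (adjusted p = 0.00620) under glomerular marker scaling. Efna5, a GPI-anchored ephrin, rose 2.13-fold from 1.39, 0.999, 0.965, 1.25 and 1.52 FPKM to 2.69, 3.41, 2.24, 2.34 and 2.35 (adjusted p = 0.000461), with 0.30 (adjusted p = 0.0763) under glomerular marker scaling.

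Efnb2, the arterial ephrin and the highest of the family over all libraries, was at 92.3, 66.0, 82.9, 50.1 and 69.1 FPKM in wild type and at 103, 88.0, 81.4, 84.7 and 118 in G799R. The groups overlapped, and its log2 difference of 0.41 ± 0.16 (SE, adjusted p = 0.0406) turned to −0.20 (adjusted p = 0.175) under glomerular marker scaling. Leaving out wild-type library 2, 4 or 5, or G799R library 1, 2 or 5, lost the call, with adjusted p up to 0.0960. Efna1, an ephrin expressed in endothelium, was at 27.7, 21.3, 22.2, 18.9 and 24.5 FPKM and at 38.7, 26.7, 24.7, 29.3 and 42.7 (log2 difference 0.46, adjusted p = 0.0215), with overlapping groups and −0.13 (adjusted p = 0.468) under glomerular marker scaling. Without wild-type library 4 or G799R library 1 its adjusted p was 0.0541 or 0.0538.

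Eph receptors, the receptor tyrosine kinases of ephrins, were called higher in 6 and lower in 3 of 11 tested genes as deposited, and in 2 and 4 under glomerular marker scaling, where the median turned from 0.49 to −0.12. Among all genes tested 40.5% were higher and 19.3% lower as deposited, and 4.88% and 56.4% after scaling. Epha6 rose 3.995-fold, the largest fold rise among guidance genes tested. It was at 1.401, 1.07, 1.93, 1.36 and 0.849 FPKM in wild type and at 4.75, 5.68, 4.45, 5.02 and 6.51 in G799R, far apart. The log2 difference was 1.44 ± 0.14 (SE, adjusted p = 8.31e-06), and 1.0065 (adjusted p = 0.000143) under glomerular marker scaling. Epha6 lies on chromosome 16 at 59653483 to 60605531. Epha3, on the same chromosome at 63543534 to 63864175, had 2.89 ± 1.89 and 2.93 ± 0.66 FPKM (adjusted p = 0.724, not called).

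Epha2, the main receptor of ephrin-A1 in epithelium and endothelium, rose 2.18-fold from 6.71, 6.52, 7.51, 4.06 and 6.07 FPKM to 12.8, 13.4, 13.3, 13.2 and 14.6, with the groups apart (log2 difference 1.03 ± 0.12 SE, adjusted p = 4.27e-05; 0.48, adjusted p = 0.00237, under glomerular marker scaling). Its share of the summed Eph receptor FPKM went from 7.995% ± 0.85 to 12.3% ± 0.46 (SD, n = 5 each), again without overlap. This share, too, can move with cell content. Epha1, known in epithelia, fell 4.90-fold from 2.26, 2.71, 2.22, 4.56 and 3.33 FPKM to 0.748, 0.822, 0.456, 0.396 and 0.653 (−1.29 ± 0.16 SE, adjusted p = 4.95e-05), and all G799R libraries were below all wild-type ones. Exons of Epha1 share 236 bases with those of Zyx on the opposite strand, and whether the library kit kept strand is not given, so reads of the 2 genes cannot be told apart in the shared bases. Exons of Sema4c and Plxna1 likewise share 334 and 970 bases with antisense transcripts (D430040D24Rik and Gm26811).

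Of the EphB receptors, Ephb4, the venous partner of ephrin-B2, was the highest, at 43.4, 35.8, 44.5, 24.1 and 44.4 FPKM in wild type and 54.0, 48.5, 55.2, 46.8 and 61.7 in G799R (log2 difference 0.49, adjusted p = 0.0191, as deposited; −0.12, adjusted p = 0.419, under glomerular marker scaling). Wild-type library 4 was the low one. Ephb1 was at 18.8, 18.9, 17.3, 16.5 and 16.6 FPKM and at 26.5, 28.9, 23.2, 27.3 and 23.5 (0.53, adjusted p = 0.000164, and −0.06 after scaling). Ephb6, a receptor without kinase activity, rose 2.01-fold to 1.99 FPKM and Epha7 1.598-fold to 3.35 FPKM as deposited (adjusted p = 0.00219 and 0.00598), and neither was called after scaling. Ephb2 fell 3.17-fold from 0.771 ± 0.257 to 0.244 ± 0.171 FPKM (adjusted p = 0.00680) and Ephb3 1.46-fold from 1.65 ± 0.24 to 1.13 ± 0.22 FPKM (adjusted p = 0.0234), both with overlapping groups. The call of Ephb3 was lost without wild-type library 4 (adjusted p = 0.0573) or G799R library 5 (adjusted p = 0.0559).

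Of the Slits and their Robo receptors, Slit2 fell. All 3 Robos tested were higher as deposited and kept a positive difference under every scaling run, though none was called under glomerular marker scaling (0.08 to 0.16). Among all genes tested, 40.5% were called higher as deposited and 4.88% after scaling. Robo2, the podocyte Robo, made up 82.3% ± 3.85 of summed Robo FPKM for wild-type and 81.8% ± 1.55 for G799R libraries (SD, n = 5 each). It was at 118, 103, 111, 127 and 132 FPKM in wild type and at 194, 201, 187, 197 and 177 in G799R (1.62-fold, log2 difference 0.69 ± 0.08 SE, adjusted p = 2.54e-05). Unlike most guidance genes called higher, it was not at its lowest in wild-type library 4. Robo1 was at 12.6, 9.82, 11.1, 6.50 and 9.71 FPKM and at 19.1, 15.8, 16.9, 15.7 and 17.2 (adjusted p = 0.000887), and Robo4, the endothelial Robo, at 21.5, 12.2, 15.5, 10.7 and 15.2 and at 24.4, 28.1, 22.4, 23.0 and 28.6 (adjusted p = 0.00174). For all 3 Robos the groups were apart, as they were in this direction for 26.1% of all genes tested.

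Slit2, a secreted ligand of Robo1 and Robo2, fell 3.91-fold. It was at 3.69, 4.14, 4.42, 4.47 and 4.83 FPKM in wild type and at 1.61, 0.922, 1.16, 0.336 and 1.49 in G799R, with every G799R library under every wild-type one (log2 difference −1.37 ± 0.17 SE, adjusted p = 4.98e-05; −1.77 under glomerular marker scaling). Slit3 had 2.22 ± 0.91 and 2.65 ± 0.65 FPKM (adjusted p = 0.348, not called), and Slit1 had a mean of 0.0538 and 0.0220 FPKM and was not tested. Slit2 supplied 66.3% ± 8.11 of the summed Slit FPKM for wild-type and 29.5% ± 14.1 for G799R libraries (SD, n = 5 each), and the groups did not overlap. Cell content can move this share as well.

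Neighbouring guidance genes did not always move alike. Robo4 and Robo3 face each other on chromosome 9 with 553 bases between them, at 37401897 to 37415115 and 37415669 to 37433246. Robo3, under the filter, was at 0.511, 0.443, 0.704, 0.576 and 0.567 FPKM in wild type and at 0.148, 0.103, 0.281, 0.128 and 0.299 in G799R, while Robo4 was higher. The G799R libraries of Robo3 were all below the wild-type ones. On chromosome 6, Ephb6 was higher and Epha1 lower with 737977 bases between them, and on chromosome 3 Sema4a was lower and Efna1 higher, as deposited, with 810550 bases between them. Robo1 and Robo2, 845743 bases apart on chromosome 16, were both higher as deposited.

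Netrins and Unc5 receptors were called higher in 2 and lower in 1 of 5 tested genes as deposited, and in 0 and 2 under glomerular marker scaling, where the median was 0.03 against 0.28. The deposited counts were near the shares of all genes tested, 40.5% higher and 19.3% lower. After scaling the shares of all genes were 4.88% and 56.4%. Ntn4, a laminin-related netrin of basement membranes, made up 89.4% ± 3.18 of summed netrin FPKM for wild-type and 93.2% ± 1.84 for G799R libraries (SD, n = 5 each). It was at 75.2, 49.2, 63.4, 42.5 and 62.6 FPKM and at 65.1, 59.8, 73.4, 71.0 and 81.6, overlapping and not called as deposited (log2 difference 0.28, adjusted p = 0.114), and lower under glomerular marker scaling (−0.33, adjusted p = 0.0117). Ntn1, the classical attractant, was at 6.20, 6.06, 5.64, 7.91 and 6.38 FPKM in wild type and at 3.63, 5.42, 6.29, 3.53 and 3.76 in G799R (−0.45 ± 0.15 SE, adjusted p = 0.0200; −0.97 under glomerular marker scaling). The groups overlapped through G799R library 3, and the call was lost without wild-type library 4 (−0.38, adjusted p = 0.0513).

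Both larger Unc5 receptors were higher as deposited with groups apart. Unc5b, the endothelial netrin receptor, was at 24.0, 18.8, 28.1, 14.2 and 17.9 FPKM in wild type and at 31.4, 31.3, 33.8, 33.3 and 33.5 in G799R (1.58-fold, log2 difference 0.67 ± 0.15 SE, adjusted p = 0.00219). Unc5c was at 7.71, 8.17, 8.50, 6.18 and 6.10 FPKM and at 10.1, 11.4, 14.8, 10.8 and 10.8 (1.58-fold, adjusted p = 0.00136). Under glomerular marker scaling they stood at 0.08 and 0.03 and neither was called. Dcc, the attractive netrin receptor, is not among the 67 genes and was chosen for this clause outside the naming rule: its mean was 0.0086 FPKM in wild type and 0.0264 in G799R.

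The ratio of a ligand to its receptor within a library does not move with library scaling, so 15 ligand and receptor pairs were compared by the exact two-sided permutation test, adjusted over the 15. A ratio can still move with cell content where ligand and receptor come from different cells. The tubule and glomerular scores differed between groups, so cell content and genotype cannot be told apart in these ratios. The ratio differed for 8 pairs, with the ligand lower relative to its receptor in 6 and higher in 2. For Slit2 to Robo1 the log2 ratio was −1.18 ± 0.45 for wild-type and −4.12 ± 0.83 for G799R libraries (SD, n = 5 each; permutation p = 0.00794, adjusted 0.0198), so Slit2 went from 0.442 to 0.0575 times the level of Robo1. The same p and adjusted p, and groups apart, were found for Sema3c to Plxnd1 (−3.87 ± 0.80 against −6.44 ± 0.10), Sema4d to Plxnb1 (−1.36 ± 0.42 against −3.04 ± 0.37) and Ntn1 to Unc5b (−1.65 ± 0.55 against −2.89 ± 0.38). They were also found for the rises of Sema4c to Plxnb2 (−3.38 ± 0.43 against −1.86 ± 0.48) and of Efnb1 to Ephb2 (6.01 ± 0.52 against 8.86 ± 1.04), the latter resting on Ephb2 at 0.095 to 0.530 FPKM in G799R. For Slit2 to Robo1, Sema3c to Plxnd1 and Sema4d to Plxnb1, every G799R library was lower for the ligand and higher for the receptor. Their ratios were therefore bound to separate, and their p-values add nothing to the values of the single genes.

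Without G799R libraries 3 and 4 the smallest exact p is 0.0179, which passes the adjustment only if 6 or more of the 15 pairs reach it. Leaving them out put 5 pairs at that p and none past the threshold (adjusted permutation p = 0.0536), while the differences were −2.55 for Slit2 to Robo1 (−2.94 with all libraries), −2.56 for Sema3c to Plxnd1 (−2.57) and −1.28 for Ntn1 to Unc5b (−1.24). Efna1 to Epha2 and Ntn4 to Unc5b were lower with overlapping groups, by −0.67 and −0.42 (exact permutation p = 0.0159, adjusted 0.0298 for each). Their adjusted p passed 0.05, up to 0.0744 and 0.0595, when 1 library was left out: wild-type 1, 2, 4 or 5 or G799R 3 or 4 for the first pair, and wild-type 4 or 5 or G799R 1, 3 or 4 for the second. For 7 pairs no difference passed the test. The vascular pair Efnb2 to Ephb4 was at 0.91 ± 0.18 and 0.83 ± 0.16 (difference −0.08, adjusted permutation p = 0.510), Sema3g to Nrp2 at 4.61 ± 0.25 and 4.68 ± 0.52 (0.06, adjusted 0.794), and Sema6a to Plxna2 at 0.51 ± 0.14 and 0.37 ± 0.18 (−0.14, adjusted 0.238). Slit3 to Robo4 and Sema7a to Plxnc1 differed by −0.47 and −0.54 (adjusted 0.173 and 0.228). The ratio of Sema7a to Plxnc1 passed the test (−0.84, adjusted 0.0298) without G799R library 5. Sema3f to Nrp2 and Sema5a to Plxna1 differed by 0.37 and −0.24 (adjusted 0.107 and 0.0661). Each passed without G799R library 2 (0.50 and −0.28, adjusted 0.0198 and 0.0397), and the second also without wild-type library 1 (−0.29, adjusted 0.0340).

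**Figure D4:**
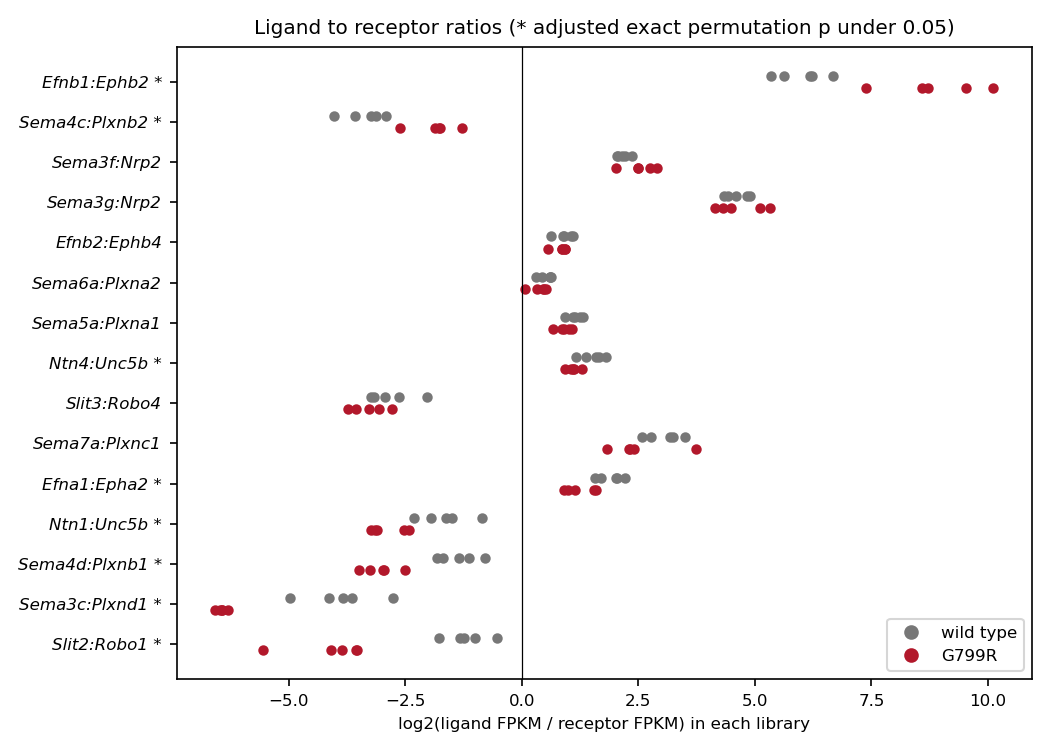
Log2 ratio of ligand FPKM to receptor FPKM in each wild-type (grey) and G799R (red) library for 15 pairs, sorted by the difference between groups; an asterisk marks an adjusted exact permutation p under 0.05. Slit2 to Robo1 and Sema3c to Plxnd1 lie to the left in G799R with no overlap, while Efnb2 to Ephb4 overlaps throughout.

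Partner genes here carry the signal inside the cell, modify the receptors, or are further surface ligands and receptors such as Flrt2, Nrp1 and Met. Their list held 92, of which 84 were tested. As deposited 59 were called higher (70.2%) and 7 lower (8.33%), beside 40.5% and 19.3% of all genes tested. Under glomerular marker scaling 5 were called higher (5.95%) and 31 lower (36.9%), beside 4.88% and 56.4% of all genes tested. The median of the partners turned from 0.39 to −0.19, and that of all genes tested from 0.17 to −0.36. The rises with the smallest adjusted p were Nck2, an adaptor of Eph and Robo signalling (1.80-fold, adjusted p = 6.96e-06), Gpc1, a heparan sulfate proteoglycan that binds Slit (2.07-fold, 1.21e-05), the kinase gene Fyn (1.76-fold, 1.25e-05) and Flrt2, a ligand of Unc5 receptors (1.95-fold, 1.55e-05). Of these Gpc1 alone was called under glomerular marker scaling (0.41, adjusted p = 0.0468). The falls with the smallest adjusted p kept their direction under that scaling: the receptor phosphatase gene Ptprf was 5.11-fold lower, the exchange factor gene Ngef, which acts behind EphA receptors, 5.60-fold, the receptor kinase gene Met 4.56-fold and the adhesion gene L1cam 2.02-fold (adjusted p = 3.41e-06, 1.15e-05, 9.02e-06 and 0.00103).

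Other markers gave the setting of these values. Of 19 neuron and nerve markers 16 were under 0.5 FPKM on average and 1 was at 0 in every library; their summed level was 11.5 to 19.1 FPKM in wild type and 20.5 to 27.5 in G799R. Interferon response genes were called higher in 27 of 27 under both scalings, with summed levels of 174 to 317 FPKM in wild type and 610 to 4922 in G799R, highest in G799R libraries 3 and 4. Without these 2 libraries the guidance genes still gave 32 higher and 9 lower calls. Of 11 tested parietal epithelial markers 3 were called higher and 6 lower as deposited, and 1 and 6 under glomerular marker scaling. Over all genes tested 40.5% were higher and 19.3% lower as deposited, and 4.88% and 56.4% under glomerular marker scaling.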

How the data were processed

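The deposited table holds FPKM values for 10 libraries, made by the authors. The submitters' processing notes list RSEM, StringTie 1.3.1, HISAT2, Bowtie2 2.2.8 and fastp 0.18.0, without role or order. Neither a genome build nor an annotation is given in the sources used here. Each column was matched to its sample by the column name in that sample's label. Symbols were found for 21963 of 22053 identifiers. Positions come from GENCODE M21 (GRCm38), which may not be the authors' build.

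FPKM was transformed to log2(FPKM + 1). With limma-trend (R 4.3.3, limma 3.58.1), genes whose mean reached 0.5 FPKM were fitted over all 10 libraries without covariates, adjusted by Benjamini-Hochberg, and the code was tested on simulated data. FPKM gives no counts, so no count model and no counting interval were used. Ratios of pairs used FPKM without a pseudocount. The guidance genes, lists, pairs and tests were chosen with earlier results of these data known.

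In each family, values per library are given for up to 4 called genes with the smallest adjusted p and for the gene with the highest mean; other genes are given with them by role. Alternatives were pseudocounts of 0.1 and 0.5, no filter, a filter of 2 FPKM, 3 other scalings, robust fitting, leaving out libraries, the tubule score as covariate and a replicate block. Replicate numbers name libraries and were not taken to pair them.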

Additional observations from a re-analysis of the deposited data

Results flagged for a closer look

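For each of the 53 tested guidance genes and each group, the highest and the lowest library were checked for a gap to the nearest other library above 0.71 of the group's range, the 95% value for 5 samples. Of 106 groups 5 had such a library (4.72%), and chance flags about 1 in 20. Sema7a was at 51.3 FPKM in G799R library 5 and at 20.1 to 25.7 in the other 4. Unc5c was at 14.8 FPKM in G799R library 3 and at 10.1 to 11.4 in the others. For Plxnc1, wild-type library 5 had 2.52 FPKM and the others 1.47 to 1.74. For Plxnb1, wild-type library 4 had 21.2 FPKM and the others 23.6 to 24.5. For Plxnb2, wild-type library 1 had 51.1 FPKM and the others 53.5 to 54.4. The calls of Sema7a, Unc5c, Plxnc1 and Plxnb1 held when that library was left out.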

How the results depend on the processing

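The counts of guidance genes called higher (32) and lower (9) and of partner genes called (66) became 7, 14 and 36 under glomerular marker scaling, and 0 each with the tubule score as a covariate, where the median standard error over all genes went from 0.109 to 0.408. A filter of 2 FPKM left 5 guidance genes lower, with fewer genes tested. Leaving out 1 library gave 29 to 33 higher, 7 to 10 lower and 56 to 67 partners. Of the 15 pairs, 8 passed the test; leaving out 1 library gave 6 to 10, and leaving out both G799R libraries 3 and 4 gave 0, where 5 pairs reached the smallest possible p (0.0179) and 6 would have been needed; Sema4d to Plxnb1 then differed by −1.55 (−1.68 with all libraries). Replicate numbers did not pair the libraries (correlations of same-numbered libraries −0.08 to 0.05, none best with its own number). A replicate block gave 32 higher, 8 lower and 62 partners, and ended the call of Ntn1 (adjusted p = 0.0501); the sign-flip test that pairs libraries by number gave 0 pairs and cannot pass with 5. Both pseudocounts of the gene fits and robust fitting kept the direction and the call of all 61 genes run; a pseudocount of 1 in the ratios ended the call of Efna1 to Epha2 (adjusted permutation p = 0.0595).

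These log2 differences turned sign. Under glomerular marker scaling they were −0.13 for Efna1, −0.20 for Efnb2, −0.32 for Epha3, −0.063 for Ephb1, −0.12 for Ephb4, −0.0012 for Nrp2, −0.33 for Ntn4, −0.10 for Plxna2, −0.16 for Plxna3, −0.20 for Plxna4, −0.075 for Plxnb1, −0.50 for Plxnb2, −0.54 for Sema3b, −0.13 for Sema3d, −0.14 for Sema4b, −0.12 for Sema5a, −0.23 for Sema6a, −0.30 for Sema6c and −0.22 for Slit3. With the tubule covariate, none of them called, they were −0.32 for Efna1, 0.15 for Efna4, −0.52 for Efnb2, −1.94 for Epha3, 0.48 for Epha4, −0.10 for Ephb4, −0.12 for Ephb6, 0.49 for Ntn1, −0.84 for Ntn4, −0.27 for Plxna2, −0.15 for Robo4, 0.76 for Sema4d, −0.84 for Sema7a, −0.27 for Slit3, −0.14 for Unc5b and 0.025 for Ngef. Median-of-ratios scaling gave −0.0075 for Epha3, −0.071 for Plxnb2 and −0.12 for Sema3b, and quantile normalisation −0.047 for Sema3b. Leaving out 1 library gave −0.025 to 0.36 for Epha3 (below 0 without wild-type 4 or 5), −0.0042 at the lowest for Sema3b (without wild-type 1) and −0.097 to 0.20 for the ratio of Sema3g to Nrp2 (below 0 without wild-type 3, G799R 3 or G799R 4); leaving out G799R libraries 3 and 4 gave −0.024 for Sema3b and −0.30 for that ratio. The cause of these changes was not tested. Depth in counts is unknown, so the 14 genes under the filter stay untested.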

Other observations

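Among the 14 guidance genes under the filter, whose means over 10 libraries reached at most 0.408 FPKM, some still differed in level between groups. Efna3, next to Efna1 and Efna4 on chromosome 3, was at 0.0950 to 0.510 FPKM in wild type and at 0 to 0.132 in G799R. Ntn3, a netrin whose exons share 89 bases with Tbc1d24 on the same strand, was at 0.0540 to 0.316 FPKM in wild type and at 0.254 to 0.71 in G799R. With no filter on low values, limma called Robo3 and Efna3 lower and Ntn3 higher among the genes added. Epha10 was listed at 0 in every library, and Ntn5 at 0 in all 5 wild-type libraries.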
